A study of Mus musculus with 6 samples.

Results

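Integrins are cell surface receptors made of 1 alpha and 1 beta subunit, and 10 integrin subunit genes that macrophages are known to use are described here in mouse bone marrow-derived macrophages. The 10 genes are the alpha subunits Itgax, Itgam, Itgal, Itga4, Itga5, Itga6 and Itgav and the beta subunits Itgb1, Itgb2 and Itgb5, out of 14574 genes listed in any library. They were matched by Entrez gene number, all 10 were listed in all 6 libraries, and all 10 passed the filter on low values (a mean of at least 1 FPKM), as did 10172 genes in all. The set was chosen by its FPKM values in Cd28 knockout (Cd28 KO) against wild-type (WT) cells, since Itgax was lower in the knockout in these same libraries, so the difference between genotypes is given for each of the 10 genes as a description, with no p-value.

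The libraries came from macrophages grown from femur marrow of mice of 6 to 10 weeks, of the strain C57BL/6J (WT) or carrying a Cd28 knockout (Cd28 KO), with 3 libraries per genotype. Marrow of both genotypes was cultured for 7 days with human M-CSF, the macrophage growth factor, at 25 ng/ml, renewed every 2 days, in DMEM with 10% fetal calf serum and 2-mercaptoethanol, and received no other treatment. Cd28 encodes a receptor best known for costimulation of T cells. No label used here states the sex of the mice, whether animals were pooled, or whether each replicate number was a separate animal. The p-values thus measure only the spread between these libraries, which between replicates 1 and 2 may be technical. Only the replicate 3 libraries listed the Y-linked gene Ddx3y, so they were not merely technical repeats of the others.

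Each alpha subunit pairs with particular beta subunits in the endoplasmic reticulum before the heterodimer reaches the surface. The beta 2 subunit (Itgb2, CD18) occurs on leukocytes and pairs with Itgal (CD11a, forming LFA-1), Itgam (CD11b, forming Mac-1 or complement receptor 3), Itgax (CD11c, forming complement receptor 4) and Itgad (CD11d). The beta 1 subunit pairs with Itga4, Itga5, Itga6 and Itgav among others and binds fibronectin, laminin and vascular cell adhesion molecules, while Itgav also pairs with the beta 3 and beta 5 subunits to bind vitronectin and the apoptotic cell bridge Mfge8. Macrophages use these receptors to adhere, migrate and engulf particles, and Itgax is widely used as a surface marker of dendritic cells and of some tissue macrophages.

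Itgam and Itgax are neighbours on mouse chromosome 7, and their upstream sequences are shown because the pair lie side by side and differed in how they varied across the libraries. In GRCm38, Itgam spans 128062640 to 128118491 and Itgax 128129526 to 128150657 on chromosome 7, 11.035 kb apart. Itgad follows at 128173933 to 128205504, and Itgal lies on the same chromosome at 127296139 to 127335137. The other members lie at chr10:77530329-77565708 (Itgb2), chr2:79255426-79333114 (Itga4), chr15:103344286-103366791 (Itga5), chr2:71786886-71858427 (Itga6), chr2:83722303-83806917 (Itgav), chr8:128685654-128733579 (Itgb1) and chr16:33829665-33949338 (Itgb5). RefSeq's promoter table for GRCm38.p6 matched 7 of the 10 genes, and the bases before the annotated gene start are printed 5′ to 3′ on the plus strand, for Itgam from chr7:128062390-128062639, for Itgax from chr7:128129300-128129525, and for Itgb5, a beta subunit outside the leukocyte family, from chr16:33829415-33829664. Capitals mark GAGGAA, the core bound by the myeloid factor PU.1 and related ETS factors, and GGGCGG, the GC box bound by Sp1, each on either strand.
Itgam: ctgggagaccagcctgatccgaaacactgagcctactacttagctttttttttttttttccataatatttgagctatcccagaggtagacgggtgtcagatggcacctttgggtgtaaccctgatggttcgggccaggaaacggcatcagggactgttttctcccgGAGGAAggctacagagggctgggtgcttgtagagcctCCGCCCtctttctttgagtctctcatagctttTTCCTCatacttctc
Itgax: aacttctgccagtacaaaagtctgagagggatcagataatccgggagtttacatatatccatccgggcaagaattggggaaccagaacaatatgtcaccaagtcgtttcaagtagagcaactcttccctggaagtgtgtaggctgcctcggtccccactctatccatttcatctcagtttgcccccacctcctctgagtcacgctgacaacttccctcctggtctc
Itgb5: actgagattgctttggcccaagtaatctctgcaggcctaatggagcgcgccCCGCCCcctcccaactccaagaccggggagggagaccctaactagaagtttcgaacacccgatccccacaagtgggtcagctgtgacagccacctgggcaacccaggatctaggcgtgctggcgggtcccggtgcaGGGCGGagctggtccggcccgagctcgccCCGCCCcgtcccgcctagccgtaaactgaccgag
The Itgam stretch held 2 copies of GAGGAA and 1 GC box, and the Itgb5 stretch 3 GC boxes and no GAGGAA. Neither motif occurred in the Itgax stretch, which says only that these letters are not in that window. GAGGAA occurred in 23.3% and GGGCGG in 32.7% of the 250 bases upstream of 32851 starts in the table. TATAAA, the TATA box sequence, was in none of the printed stretches and in 12.4% of all. The GC content was 49.6% for Itgam, 49.6% for Itgax and 65.2% for Itgb5, against a median of 52.4% over the table.

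The depth of sequencing is unknown here. FPKM, which divides fragments by transcript length and by library size, allows levels to be compared between genes, and it summed to 510937 to 576313 per library. Cd28 itself averaged 25.6 ± 1.38 FPKM in the knockout and 39.8 ± 10.6 FPKM in the wild type (SD, n = 3 each), and values per gene cannot tell which exons were read. Replicate 3 of each genotype lay far from the rest on principal component 1, at 34.8 and 36.1 against -18.2 to -17.4 for the other 4, and only these listed the Y-linked gene Ddx3y, at 10.6 and 14.4 FPKM. All 8 macrophage markers were listed in every library, with Csf1r at 830 to 972 FPKM and Adgre1 (F4/80) at 262 to 333 FPKM. The T cell genes Cd3d and Trac were at 0 in every library, as were Ncr1 and Gzmb of NK cells, and the summed markers of B cells, NK cells, stromal fibroblasts and erythroid cells each reached at most 1.22 FPKM in any library. Summed neutrophil markers were 3.70 to 8.31 FPKM in the Cd28 KO libraries and 2.15 to 6.18 in the WT libraries, T cell markers 3.88 to 6.91 and 4.40 to 7.20 (mostly Cd4), platelet markers 13.8 to 21.0 and 8.60 to 18.7 (mostly Pf4), endothelial markers 4.55 to 9.60 and 4.70 to 17.6 (mostly Kdr), and mast cell or basophil markers 1.68 to 2.09 and 3.04 to 4.10 (mostly Kit).

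The integrins of these macrophages were led by the 2 subunits of Mac-1, followed by the beta 1 and beta 5 subunits. Over all 6 libraries, Itgb2 stood at 260 ± 41.2 FPKM, Itgam at 178 ± 30.2, Itgb1 at 125 ± 9.66 and Itgb5 at 79.0 ± 6.14 (SD, n = 6). Below them came Itga5, the alpha subunit of the fibronectin receptor, at 29.0 to 50.0 FPKM (SD of 8.99) and Itga6, of laminin receptors, at 34.4 ± 5.58. Itgax stood at 21.6 ± 10.6 FPKM, Itgav at 21.4 ± 4.07, Itga4, of the receptor VLA-4, at 12.9 ± 2.02 and Itgal at 2.72 ± 1.51. The 10 genes together made up 0.123% to 0.169% of each library's FPKM sum.

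Neighbours in this order were compared by an exact two-sided sign-flip permutation test of the log2 ratio within each library. The p-values were adjusted over the 9 pairs by Benjamini-Hochberg. Order and pairs were taken from the means of these same libraries, so the test does not check the order on other data. In 6 pairs the higher gene was higher in 6 of 6 libraries, each with an exact permutation p of 0.0313, the smallest that 6 libraries allow, and an adjusted p of 0.0469. The test takes the 6 libraries as independent; with libraries of the same replicate number counted as 1, the smallest p would be 0.25 and none of the 9 pairs could pass. The 6 pairs began with Itgb2 over Itgam (1.46-fold by geometric mean), Itgam over Itgb1 (1.42-fold) and Itgb1 over Itgb5 (1.58-fold). They continued with Itgb5 over Itga5 (2.12-fold), Itgav over Itga4 (1.65-fold) and Itga4 over Itgal (5.35-fold). The other 3 pairs did not pass, so the middle of the order is not resolved. Itga5 exceeded Itga6 in 3 of 6 libraries (1.09-fold, exact permutation adjusted p = 0.598), Itga6 exceeded Itgax in 5 of 6 (1.71-fold, adjusted p = 0.121), and Itgax exceeded Itgav in 2 of 6 (0.944-fold, adjusted p = 0.781).

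**Figure D1:**
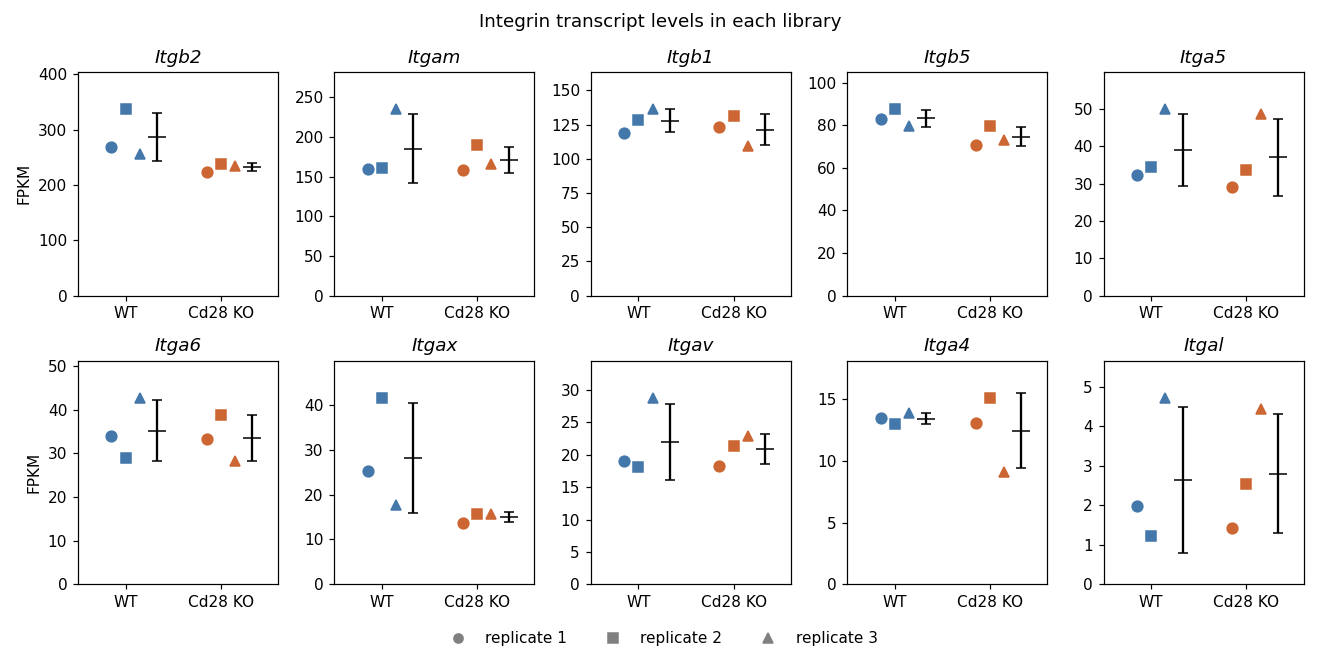
FPKM of the 10 integrin genes (vertical axes, linear from 0, 1 panel per gene in order of mean level) in the 3 WT and 3 Cd28 KO libraries; symbols mark the replicate number and the bar beside them the mean ± SD (n = 3). Itgax runs from 13.7 to 15.7 in Cd28 KO and from 17.7 to 41.5 in WT, while Itgam, Itgal and most other genes overlap between the genotypes.

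Itgax, the alpha subunit CD11c, was the member with the largest difference between genotypes. It stood at 13.7, 15.7 and 15.7 FPKM in Cd28 KO replicates 1 to 3 and at 25.3, 41.5 and 17.7 FPKM in WT replicates 1 to 3. Every Cd28 KO library lay below every WT library, the Cd28 KO libraries were close together, and the WT libraries were spread, with replicate 3 only slightly above the Cd28 KO range. The means were 15.1 ± 1.16 FPKM for Cd28 KO and 28.2 ± 12.2 for WT (SD, n = 3 each), a level of 53.5%. In bulk RNA, fewer cells of a type and less RNA per cell cannot be told apart. The difference was -0.78 ± 0.28 on the log2(FPKM + 1) scale (SE), a scale that understates changes of low genes. By replicate number, Cd28 KO stood at 54.3%, 37.9% and 88.9% of WT. Without WT replicate 2, the highest library, the log2 difference was -0.47, and in replicates 1 and 2 alone it was -1.09 ± 0.19 (SE).

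Itgb2, the common beta subunit of the leukocyte integrins, was also separated, with all 3 Cd28 KO libraries below all 3 WT libraries. Its values were 224, 238 and 235 FPKM in Cd28 KO and 269, 337 and 256 FPKM in WT, with the WT libraries in the same order as for Itgax. The means were 232 ± 7.21 and 287 ± 43.7 FPKM (SD, n = 3 each), or 80.8% of WT, and the log2 difference was -0.30 ± 0.12 (SE). Without WT replicate 2 it was -0.18.

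The third member without overlap was Itgb5, which pairs with Itgav. It stood at 70.9, 79.5 and 73.3 FPKM in Cd28 KO and at 83.0, 87.6 and 79.6 FPKM in WT. Here the groups were separated by a narrow gap, from 79.48 FPKM in Cd28 KO replicate 2 to 79.64 in WT replicate 3. The means were 74.6 ± 4.42 and 83.4 ± 3.99 FPKM (SD, n = 3 each), with a log2 difference of -0.16 ± 0.09 (SE).

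Counts over the 10 genes are set beside those over all genes and carry no reading of their own, since the contrast was used to choose them. Lower without overlap were 3 of the 10, against 2.87% of all 10172 tested genes, and higher without overlap 0 of the 10, against 3.84%. Limma called 0 of the 10 genes at an adjusted p below 0.05, against 0.0197% of all genes, and with the replicate number as a block 0 of the 10, against 0.138% called higher and 0.0393% lower, or 0.177% in all. With a term for the replicate 3 libraries it called 0 of the 10, against 0.197% higher and 0.0786% lower, or 0.275% in all. An unadjusted limma p under 0.05 was found for 253 of all 10172 genes. Such p-values are not counted for the 10, whose choice used this contrast. In replicates 1 and 2 alone, limma called 1 of the 10 lower, against 0.305% of all genes, and 0 higher, against 0.393%. The 1 was Itgax, the gene whose lower values in these libraries entered the choice of the set, so its call is no test. The median log2 difference over the 10 genes was -0.09 and that over all tested genes was 0.00. In replicates 1 and 2 alone the medians were 0.06 and 0.03.

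The other leukocyte alpha subunits overlapped between the genotypes. Itgam (CD11b) stood at 158, 190 and 166 FPKM in Cd28 KO and at 160, 161 and 235 FPKM in WT. Only WT replicate 3 stood out, at the top, so that Cd28 KO was at 99.0%, 118% and 70.5% of WT by replicate number. The log2 difference was -0.09 ± 0.17 (SE), and it was 0.11 in replicates 1 and 2 alone. Itgal (CD11a) was low, at 1.44, 2.54 and 4.43 FPKM in Cd28 KO and 1.99, 1.22 and 4.72 FPKM in WT. Its highest value in each genotype was in replicate 3, where the mean of both libraries was 2.55 times that of the other 4. Itgad reached at most 0.05 FPKM.

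The members of the beta 1 group were close between genotypes. Itgb1 stood at 123.35, 131 and 109 FPKM in Cd28 KO and 119, 129 and 136 FPKM in WT, a log2 difference of -0.08 ± 0.11 (SE) that was 0.04 in replicates 1 and 2 alone. Itga5 stood at 29.0, 33.6 and 48.7 FPKM in Cd28 KO and 32.3, 34.4 and 50.0 FPKM in WT. For Itga5 the replicate 3 library was the highest of both genotypes, and the mean of both was 1.53 times that of the other 4 libraries. Itga6 stood at 33.3, 38.8 and 28.3 FPKM in Cd28 KO and 34.0, 29.0 and 42.7 in WT. Itga4 stood at 13.1, 15.1 and 9.13 FPKM in Cd28 KO and 13.5, 13.0 and 13.9 in WT. For both genes the lowest library of all was Cd28 KO replicate 3 and the highest was either Cd28 KO replicate 2 (Itga4) or WT replicate 3 (Itga6). Itgav stood at 18.3, 21.4 and 22.9 FPKM in Cd28 KO and 19.0, 18.1 and 28.8 in WT. For Itga6, Itga4 and Itgav, the log2 differences were -0.07 ± 0.18, -0.13 ± 0.19 and -0.05 ± 0.19 (SE), and all 3 were positive in replicates 1 and 2 alone, at 0.19, 0.08 and 0.09.

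**Figure D2:**
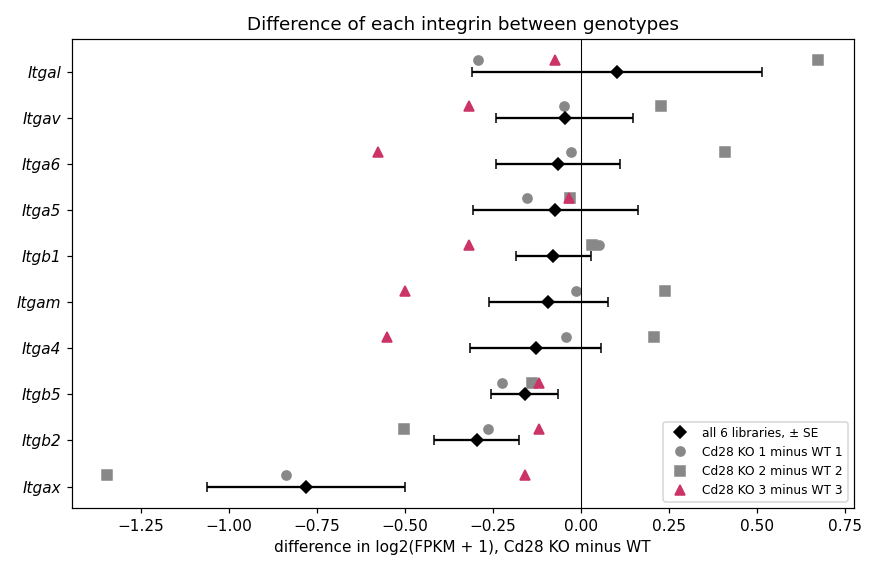
Difference between Cd28 KO and WT in log2(FPKM + 1) for each integrin gene (horizontal axis); black diamonds show the fit over all 6 libraries with its SE, and the other symbols the difference between libraries of the same replicate number. Itgax, Itgb2, Itgb5 and Itga5 lie below 0 in each of these comparisons, although Itga5 overlaps between the genotypes. For Itgax the difference of the replicate 3 libraries is -0.16 against -0.84 and -1.34.

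Alpha and beta transcripts of the leukocyte family were summed to see how the subunits were matched in each library. The summed alpha transcripts (Itgal, Itgam, Itgax and Itgad) stood at 0.773, 0.875 and 0.791 of Itgb2 in the Cd28 KO libraries and at 0.694, 0.603 and 1.01 in the WT libraries. Itgb2 thus exceeded the sum of its alpha partners in 5 of 6 libraries, with a mean ratio of 0.791 ± 0.141 (SD, n = 6). Itgam supplied most of the alpha transcript, at 79.0% to 91.3% of the sum. Itgax supplied 7.92%, 7.57% and 8.45% of it in Cd28 KO and 13.5%, 20.4% and 6.86% in WT, so the share of WT replicate 3 lay below all 3 Cd28 KO libraries. The ratio of Itgam to Itgax was 10.6 to 12.1 in Cd28 KO and 6.32, 3.87 and 13.3 in WT.

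For the beta 1 subunit, the sum of Itga4, Itga5, Itga6 and Itgav was 0.760, 0.830 and 1.00 of Itgb1 in Cd28 KO and 0.830, 0.735 and 0.993 in WT. The ratio was highest in replicate 3 of both genotypes. Itga5 made up 30.9% to 44.7% of this sum, Itga6 26.0% to 35.6%, Itgav 19.2% to 21.3% and Itga4 8.37% to 13.9%. These alpha subunits have further partners, of which Itgb7, the beta subunit that pairs with Itga4 to bind the gut addressin MAdCAM-1, stood at 23.7, 30.3 and 32.1 FPKM in Cd28 KO and 22.1, 19.5 and 44.3 in WT. Itgb7 thus exceeded Itga4 in every library, 1.51-fold to 3.52-fold. Itgb3, the vitronectin receptor subunit of osteoclasts and platelets, stood at 3.42 to 5.04 FPKM, and Itgb5 exceeded it 15.8-fold to 23.2-fold.

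**Figure D3:**
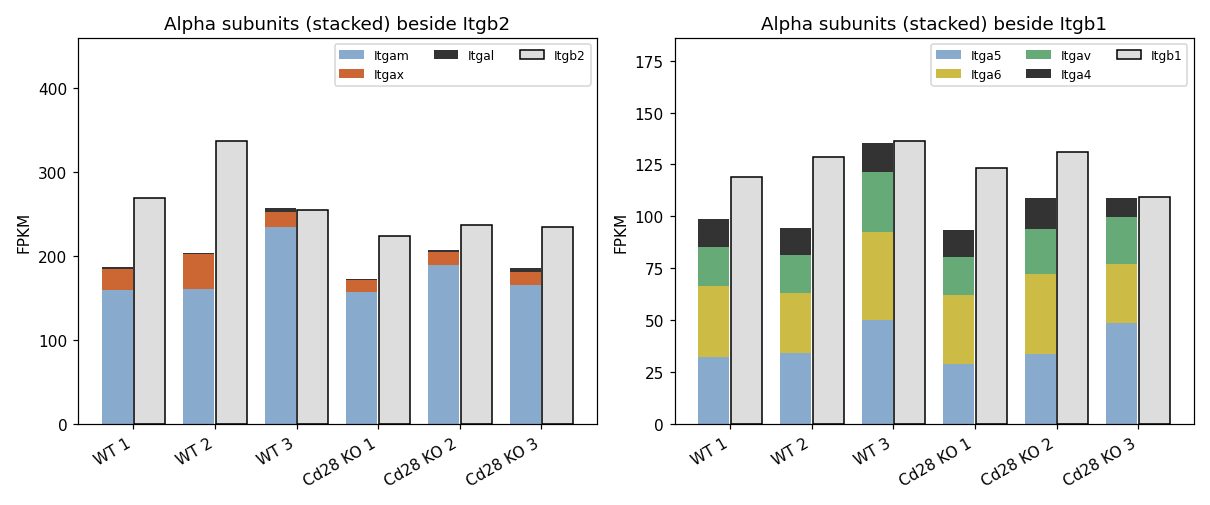
FPKM (vertical axes, linear from 0) of alpha subunits, stacked, beside their beta subunit in each library, for the beta 2 family on the left and the beta 1 family on the right. Itgam makes up 79.0% to 91.3% of the beta 2 family's alpha sum, and WT replicate 3 is the library in which that sum reaches the level of Itgb2.

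Of the 16 other integrin subunit genes, 13 were listed and only Itgb3 and Itgb7 passed the filter on low values. Neither was called by limma (adjusted p = 0.9995 for both without a block, and 0.9612 and 0.9463 with the replicate block), with log2 differences of 0.06 ± 0.17 and 0.09 ± 0.30 (SE). Itga1, Itga2b, Itga3, Itga7, Itga8, Itga9, Itga10, Itgae, Itgb4 and Itgb8 did not exceed 0.74 FPKM in any library. Of these, Itga9 stood at 0.37 to 0.49 FPKM in the Cd28 KO libraries and 0.55 to 0.72 in the WT libraries, and Itga10 at 0.11 to 0.23 and 0.04 to 0.06, both without overlap, in opposite directions and below the filter. Itga2, Itga11 and Itgb6 were listed in no library.

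Sequence shared with other genes could affect how reads were assigned to some members. Every run of 50 bases in the longest coding transcript of each member was looked up in the GENCODE transcripts of other genes on GRCm38. Itgal, Itga5, Itgav and Itgb1 shared none. Itgax shared 9.61% of its runs, all with Itgad, whose level did not exceed 0.05 FPKM. Itgam shared 72.4%, with the gene model Gm49368 that overlaps it. Itgb2 shared 1.16%, Itga6 6.50%, Itgb5 8.17% and Itga4 10.9%, the last mostly with the overlapping gene Cerkl. How the authors' counting treated these stretches is unknown here.

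Genes that act with integrins were examined as 6 further lists, chosen for their function in adhesion but with earlier results of these data known. Together with the other subunits they held 115 genes, of which 71 were tested. Limma called 0 of the 71 without a block, against 0.0197% of all tested genes, with 4 at an unadjusted p below 0.05, against 253 of 10172, and 36 had a positive and 35 a negative difference. The median log2 difference over the 71 was 0.00, as over all tested genes, of which 49.1% were positive. With the replicate block limma called 1 of the 71, Rab4a, against 0.177% of all tested genes, and in replicates 1 and 2 alone it called 3, Rab4a as higher and Mfge8 and Plaur as lower, against 0.698% of all genes in that comparison.

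Among 11 tested activators and inhibitors, 0 were called by limma in any of these fits. Over all tested genes the shares called were 0.0197% without a block, 0.177% with it and 0.698% in replicates 1 and 2 alone. The median log2 difference over the 11 was -0.03. Talin (Tln1), which binds beta tails and switches integrins on, stood at 100.2, 131 and 99.3 FPKM in Cd28 KO and 132, 139 and 136 in WT. All 3 Cd28 KO libraries were below the WT libraries, 1 of them narrowly, and the difference of -0.31 ± 0.13 (SE) did not pass (limma adjusted p = 0.9995). Filamin A (Flna), which competes with talin for beta tails, had -0.26 ± 0.14 (SE, limma adjusted p = 0.9995), and the small GTPase Rap1b, at 214 to 333 FPKM, 0.17 ± 0.19.

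Linkers between integrins and actin had a median of -0.11 over 13 tested genes, of which 8 were negative. Limma without a block called 0 of the 13, against 0.0197% of all tested genes. Without overlap were 2 higher and 2 lower, against 3.84% and 2.87% of all tested genes. Alpha-actinin 1 (Actn1), which crosslinks actin at adhesions, stood at 41.6, 47.2 and 38.2 FPKM in Cd28 KO and 53.4, 55.7 and 51.6 in WT, without overlap. Its difference of -0.34 ± 0.11 (SE) had a limma adjusted p of 0.9995, and 0.36 with the replicate block. Parvb, a parvin of the complex with integrin-linked kinase, was at 29.8 ± 1.80 against 35.4 ± 2.56 FPKM (SD, n = 3 each). Integrin-linked kinase (Ilk) itself went the other way, at 137 ± 7.31 against 120 ± 5.06 FPKM, as did leupaxin (Lpxn) at 152 ± 5.53 against 133 ± 9.36. Each of these was without overlap and not called. Lasp1, an actin-binding adhesion protein, stood at 158 ± 27.0 against 190 ± 24.8 FPKM.

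Signalling genes downstream of integrins had a median of -0.01 over 15 tested genes. Limma without a block called 0 of the 15, against 0.0197% of all tested genes. Without overlap were 0 of the 15, against 3.84% higher and 2.87% lower over all tested genes. In a list of 15, counts of 0 are near these shares. The adaptors Fcer1g and Tyrobp, through which macrophage integrins recruit the kinase Syk, were the most abundant, at 3143 ± 310 against 3045 ± 469 FPKM and 2025 ± 281 against 1827 ± 145 FPKM (SD, n = 3 each). Vav2, an exchange factor, and the Src family kinase Fgr had the smallest p of the list, with log2 differences of -0.21 ± 0.15 and -0.19 ± 0.16 (SE), neither called.

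Among 10 tested ligands, 5 had a positive and 5 a negative difference. Limma without a block called 0 of them, against 0.0197% of all tested genes. Mfge8, which bridges apoptotic cells to the integrins of Itgav with Itgb3 or Itgb5, stood at 77.3, 85.4 and 108 FPKM in Cd28 KO and 136, 190 and 96.3 in WT. In replicates 1 and 2 both Cd28 KO values were below both WT values, while in replicate 3 the order was turned. Its log2 difference was -0.60 ± 0.25 (SE), with limma adjusted p = 0.9995, and -0.97 ± 0.15 in replicates 1 and 2 alone, with limma adjusted p = 0.029. Osteopontin (Spp1), a ligand of Itgav and Itga4 integrins, stood at 4539, 4335 and 6110 FPKM in Cd28 KO and 3874, 4148 and 3545 in WT. Although without overlap, its difference of 0.36 ± 0.15 (SE) was not called (limma adjusted p = 0.9995), and it was 0.15 in replicates 1 and 2 alone. Tgfb1, whose latent form is released by integrins of Itgav, stood at 276 ± 11.3 against 301 ± 16.9 FPKM. Fibronectin (Fn1) and Vcam1 did not exceed 0.43 and 0.15 FPKM, and vitronectin and the fibrinogen chains were listed in no library.

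Surface partners and trafficking genes of integrins had medians of 0.02 and 0.04 over 10 tested genes each. The tetraspanin Cd9 stood at 441 ± 55.2 against 403 ± 22.4 FPKM, Cd63 at 1210 ± 163 against 1213 ± 131, and Cd47, which associates with the beta 3 integrin, at 60.8 ± 9.02 against 53.2 ± 9.13 FPKM (SD, n = 3 each). Plaur, the urokinase receptor that binds integrins laterally, was 26.7 and 27.2 FPKM in Cd28 KO replicates 1 and 2 against 41.5 and 47.2 in WT, and 136 against 122.9 in replicate 3. Its log2 difference was -0.70 ± 0.10 (SE) in replicates 1 and 2 alone, with limma adjusted p = 0.023, and -0.42 ± 0.68 over all 6 libraries, with limma adjusted p = 0.9995. Rab4a, a GTPase of fast recycling to the surface, stood at 11.4, 10.9 and 13.7 FPKM in Cd28 KO and 4.14, 5.28 and 4.93 in WT. Its difference of 1.17 ± 0.15 (SE), with the Cd28 KO libraries all above the WT libraries, had a limma adjusted p of 0.16 without and 0.0075 with the replicate block. Dab2, an adaptor of integrin endocytosis, stood at 179 ± 8.04 against 171 ± 30.7 FPKM, Eps8 at 7.93 ± 0.969 against 6.64 ± 2.82, and Arf6, a GTPase of integrin recycling, at 90.2 ± 8.47 against 92.2 ± 1.73 (SD, n = 3 each), with 0 of the 3 called by limma.

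**Figure D4:**
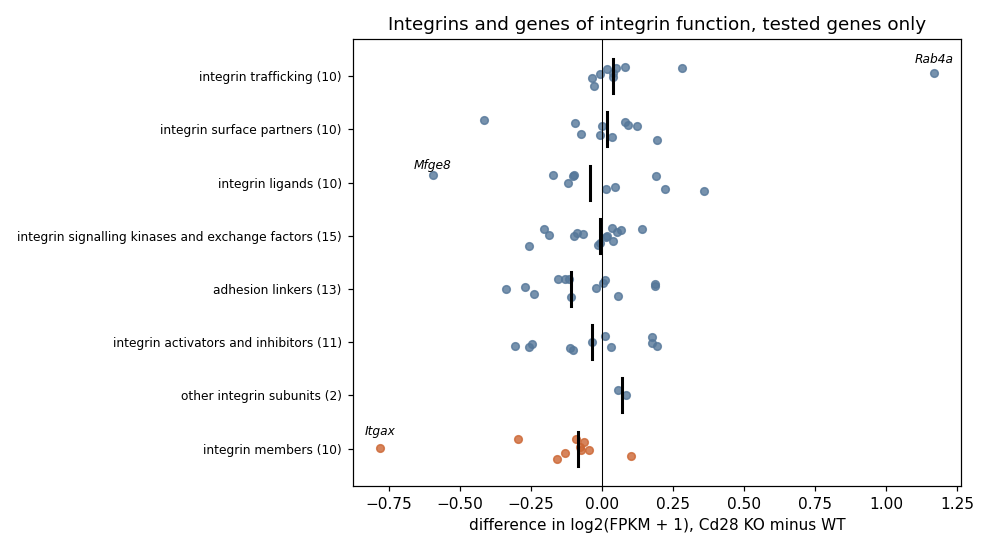
Difference between Cd28 KO and WT in log2(FPKM + 1) (horizontal axis) for each tested gene of the integrin members and of the 7 lists of related genes; points are genes, vertical bars are list medians, and the number of tested genes is in brackets. Itgax at -0.78, Mfge8 at -0.60 and Rab4a at 1.17 lie outside the main body of points, and the list medians run from -0.11 to 0.07.

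Genes with the profile nearest to that of Itgax were found by the root mean square difference between log2(FPKM + 1) profiles, each centred on its own mean, over the 6 libraries. Among 10172 tested genes the 6 nearest were Cd200 (0.147), Lrrc32 (0.156), Mfge8 (0.157), Mgll (0.158), F10 (0.177) and Eef1a2 (0.190). Cd200 is an inhibitory ligand for myeloid cells, and Lrrc32 (GARP) holds latent TGF-beta for release by integrins. Mgll is a monoacylglycerol lipase, F10 coagulation factor X and Eef1a2 a translation elongation factor. Most of these were low: Cd200 stood at 1.15, 1.24 and 1.24 FPKM in Cd28 KO and 2.50, 3.51 and 1.62 in WT, and Lrrc32 at 0.93, 0.90 and 0.84 against 1.76, 2.93 and 1.23. That these genes peak in the same library as Itgax follows from how they were picked. With the minimum mean raised to 5 FPKM, the 6 nearest were Mfge8, Pianp, Dcstamp, Mamdc2, Stac2 and Atp6v0d2, of which Dcstamp and Atp6v0d2 act in the fusion of macrophages and osteoclasts. Of the other members, Itgb2 came nearest to Itgax, at rank 58 with a difference of 0.334, then Itgb5 at rank 590, while Itgam ranked 7624.

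**Figure D5:**
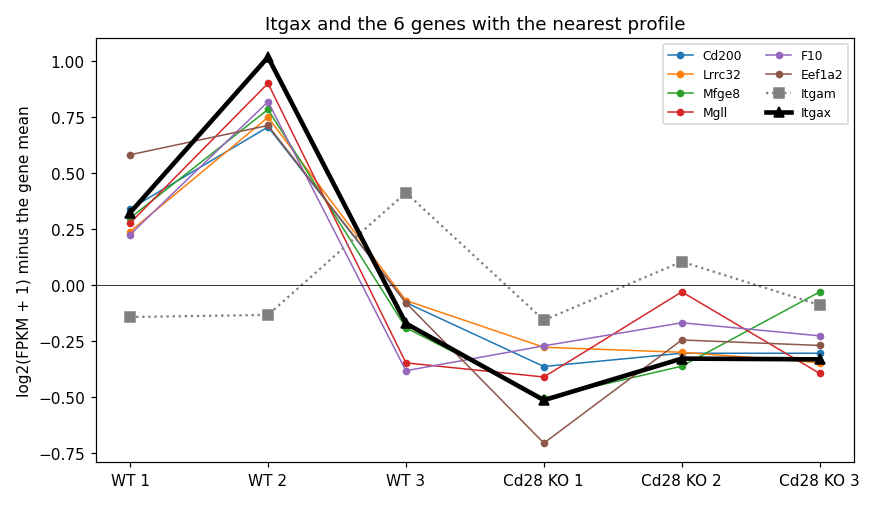
Profiles of Itgax (black), its 6 nearest genes and its neighbour Itgam (grey, dotted) over the 6 libraries, as log2(FPKM + 1) minus the gene's own mean (vertical axis). The 6 genes follow Itgax because they were picked for it, while Itgam is highest in WT replicate 3.

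Markers of cell types that carry Itgax were set beside it. The 12 dendritic cell markers were all listed, 4 of them at a mean of at least 1 FPKM, and they summed to 21.1 to 39.3 FPKM in the Cd28 KO libraries and 20.2 to 36.0 in the WT libraries, highest in replicate 3 of each, mostly Cd24a at 10.4 to 28.8 FPKM. Batf3 stood at 5.53, 1.12 and 2.26 FPKM in Cd28 KO and 4.81, 5.24 and 3.25 in WT, with overlap. Limma did not call it (log2 difference -0.59 ± 0.40, SE, adjusted p = 0.9995). Of the 4 tested dendritic cell markers, 2 had a negative and 2 a positive difference. Besides Batf3 these were Ccr7 at 0.22 ± 0.25, Cd24a at 0.13 ± 0.43 and Siglech at -0.04 ± 0.22 (SE), each not called. The defining genes Flt3 and Zbtb46 stayed at or below 0.18 FPKM, and Clec9a and Xcr1 at or below 0.32 and 0.45. MHC class II genes, by contrast, were abundant, and all 7 were listed in every library. Their sum was 2732, 2731 and 2932 FPKM in Cd28 KO and 3142, 3962 and 2545 in WT, mostly Cd74 at 1539 to 2633. The sum was highest in WT replicate 2, as for Itgax, and that of WT replicate 3 lay below all Cd28 KO libraries. Cd74, H2-Aa, H2-DMa and H2-DMb1 were also highest in WT replicate 2, while H2-Ab1, H2-Eb1 and Ciita were highest in a Cd28 KO library. Monocyte markers summed to 115 to 139 FPKM in the Cd28 KO libraries and 51.8 to 87.8 in the WT libraries, mostly Ly6a, at 79.3, 98.3 and 108 against 43.6, 27.4 and 59.1. Ly6a had a log2 difference of 1.17 ± 0.27 (SE), and limma called it with the replicate block (adjusted p = 0.042) but not without (adjusted p = 0.9995). The part of the MHC class II and monocyte markers in the difference of Itgax was not tested.

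Within 0.1 Mb of the start of Itgax, 10 genes are annotated and 4 were listed. Besides Itgax and Itgam, these were Itgad and Cox6a2, a cytochrome c oxidase subunit of muscle, at 0.85 to 1.19 FPKM in the Cd28 KO libraries and 0.17 to 1.01 in the WT libraries. The adjacent Itgam, 66.9 kb away by gene start, was the only other gene of the window above the filter, with a log2 difference of -0.09 against -0.78 for Itgax. Whether these differ was not tested, since Itgax was chosen for its lower values in Cd28 KO.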

How the data were processed

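RNA of 3 Cd28 KO and 3 WT macrophage cultures was sequenced, with groups taken from the titles. The authors deposited 1 FPKM value per gene and library. The tools named are Bowtie and RSEM and the build is GRCm38, per the submitters' processing notes, without versions or read numbers. RSEM estimates how reads are shared between similar sequences, so values of such genes are uncertain. A gene missing from a file was counted as 0. Entrez numbers were matched to RefSeq for GRCm38 (14551 of 14574).

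The 10172 genes averaging 1 FPKM or more were tested with limma 3.58.1 in R 4.3.3 (empirical Bayes with trend) on log2(FPKM + 1), Benjamini-Hochberg adjusted over all tested genes, two-sided, called below 0.05. The fit was tested on simulated data with independent noise in each library. These data held no effect shared by replicate number, so that test does not cover the split of replicate 3. Library deviations from the group means correlated at 0.752, 0.505 and 0.783 for replicates 1, 2 and 3, and pairing by number was accepted from these correlations, since no label states it; Cd28 KO replicate 2 correlated more with WT replicate 1 (0.535), so only replicate 3 is distinct. Block results are given where they change a call. Members and lists were chosen with earlier results of these data known. Named were the 10 members, other listed subunits, the 6 genes nearest Itgax and those within 0.1 Mb. Per list, the genes called in either fit, 2 of smallest p and 2 of highest mean were also named. Plaur, Ddx3y, Fn1, Vcam1, Ly6a, Cd24a, Batf3, Ccr7, Siglech and Ilk were chosen after their values were seen. Python 3.11.15, pandas 2.3.3, NumPy 2.4.6 and Matplotlib 3.10.9 were used.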

Additional observations from a re-analysis of the deposited data

How the results depend on the processing

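Itgax, Itgb2 and Itgb5 stayed lower in Cd28 KO in all 15 alternative settings. On the log2 scale they ran from -1.09 to -0.47, -0.38 to -0.18 and -0.22 to -0.12. Their groups did not overlap, so leaving out libraries could not change the sign. The replicate block and the term for replicate 3 left the estimates unchanged, so the kept sign is no test of the difference. The other 7 members changed sign in at least 1 setting; for Itgb1 this was replicates 1 and 2 alone. Limma called 2 genes higher and 0 lower over the whole table, against 14 and 4 with the replicate block. It called 20 and 8 with a term for replicate 3, 40 and 31 in replicates 1 and 2 alone, and 3 lower without the filter. Members called were 0, except 1 in replicates 1 and 2 alone. Other integrin and adhesion genes called were 0, against 1 with the replicate block. With the term for replicate 3 they were 1, and in replicates 1 and 2 alone 3. Rab4a was called in these 3 settings, and the block changed no other call among the named adhesion genes; the cause was not tested. Of the 6 genes nearest Itgax, 1 was shared at a minimum mean of 5 FPKM and 3 without both replicate 3 libraries; the minimum removes the low genes. Of 45 pairs of members, 44 to 45 kept their order, and the mean ratio of alpha to beta levels was 0.737 to 0.828 for beta 2 and 0.789 to 0.883 for beta 1. Read numbers are unknown here, so counting error could not be set beside low genes such as Itgal.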

Other observations

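Several adhesion genes differed more between replicate 3 and the other replicates than between genotypes; they were chosen after their values were seen. Thbs1, a matrix ligand of macrophages, stood at 67.8 FPKM in Cd28 KO replicate 3 and 116 in WT replicate 3, and at 1.38 to 2.81 FPKM in the other 4 libraries. Cyth1, an exchange factor that binds the Itgb2 tail, stood at 47.7 and 61.4 FPKM in the replicate 3 libraries and 11.95 to 13.3 in the others. Slc3a2 (CD98 heavy chain), a partner of beta 1 integrins, stood at 332 and 304 FPKM against 105 to 130. Among the integrins, Itgal, Itga5, Itgav and Itgb7 were also higher in both replicate 3 libraries than in any other, at 4.43 and 4.72, 48.7 and 50.0, 22.9 and 28.8, and 32.1 and 44.3 FPKM. Each genotype had 1 such library, and only these libraries listed the Y-linked gene Ddx3y. Sex and any other difference of replicate 3 cannot be told apart here, and the difference was not tested.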
